A study of Mus musculus with 4 samples.

Results

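The Notch receptors, their ligands and the modifier Lfng were followed in sorted mouse cells as 10 genes: the 4 receptors Notch1, Notch2, Notch3 and Notch4, the 5 ligands Dll1, Dll3, Dll4, Jag1 and Jag2, and Lfng. They were taken by gene symbol from the 18194 genes that the array's annotation names, and each was read on the probe set, a group of short probes for 1 transcript, with the highest mean over the arrays. The 10 genes had 20 probe sets in all, of 45101 on the array, and all 10 genes could be read.

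The cells came from embryonic stem cells of the mouse line TT2 that carried a Venus fluorescent reporter knocked into 1 allele of Etv2, a member of the ETS family that acts in early blood and vessel precursors. Differentiation took place on OP9 stromal cells, a feeder derived from mouse bone marrow, and the labels of the samples give day 5. Cells positive for Flk-1, a VEGF receptor and the product of Kdr, were sorted into an Etv2-Venus positive population, with 2 arrays, and an Etv2-Venus negative population, also with 2 arrays. Both populations share the line, the heterozygous reporter, the Flk-1 sort and the feeder, so no unsorted or wild type cells enter the comparison. The labels do not say whether arrays 1 and 2 came from separate cultures, so p-values rest on an array-to-array spread that may be technical. In RNA from sorted bulk cells, fewer cells that express a gene and less RNA per cell cannot be told apart.

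Notch is a receptor that a ligand on a neighbouring cell activates. Binding leads to cleavage of the receptor by ADAM proteases and gamma-secretase, and the freed intracellular part joins the DNA-binding protein RBPJ to switch on targets such as the Hes and Hey repressors. In mouse embryos Dll1, Dll3 and Lfng are known from the presomitic mesoderm, where Notch signalling takes part in the segmentation clock, while Dll4, Notch1 and Notch4 are known from endothelium, where Notch signalling takes part in arterial fate. Dll3 differs from the other Delta ligands in that it is found mostly inside the cell and inhibits Notch signalling rather than activating it.

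The values are log2 expression values after RMA, so a difference of 1 is a 2-fold difference, and every difference is that of Etv2-Venus positive cells minus negative cells, with the standard error (SE) of the limma fit. Array medians lay between 5.46 and 5.52. The number of arrays limits the precision. As a check of the sort, Etv2 measured 12.64 and 12.41 on the positive arrays, against 12.03 and 11.87 on the negative arrays. Its difference was 0.57 (SE 0.13, 1.49-fold higher, limma adjusted p = 0.185). Etv2 RNA was also high in the Etv2-Venus negative cells, with a mean of 11.95, far above the array medians. The early mesoderm receptor Pdgfra measured 8.55 and 7.67 on the positive arrays, against 10.11 and 9.41 on the negative arrays. Kdr, on which both populations were selected, averaged 12.73 ± 0.12 in positive and 12.60 ± 0.12 in negative cells (SD, n = 2 arrays each). Of 14 endothelial markers, 13 had positive arrays above both negative arrays, against 22.4% of all genes, and Emcn, a later endothelial sialomucin, was at 3.27 and 3.50 against 3.50 and 3.26, below the array medians.

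The largest differences among the 10 genes were those of the Delta ligands Dll1 and Dll3, both more than 3-fold lower in Etv2-Venus positive cells. Jag1 was lower as well, Dll4 was higher, and Jag2 showed no separation. To show the sequences in front of genes that were lower together, the 250 bases before the annotated start follow for Dll1, Dll3, Jag1 and Lfng, the 4 genes that were lower at an unadjusted p under 0.05. That of Dll4, the ligand that was higher, is added beside them. Notch2, also lower on both positive arrays but with an unadjusted p of 0.217, is not shown. Which windows and which Dll1 start to show was decided after the motif matches were seen. They are from RefSeq on build GRCm38.p6, written 5′ to 3′ on the strand of the gene. Capitals mark matches to any of 6 short motifs searched on both strands. RBPJ, the partner of cleaved Notch, is known to bind TGGGAA. ETS factors such as Etv2 recognise sites that contain CCGGAA. For the T-box factors of mesoderm the letters searched were AGGTGT. Basic helix-loop-helix factors bind E-boxes, of which CAGCTG was searched first. The second E-box searched had the letters CATATG. The last motif, for GATA factors of blood and heart, was AGATAA. Dll1 has 2 annotated starts, and the outer one is shown.
Dll1, chr17:15376933-15377182, minus strand: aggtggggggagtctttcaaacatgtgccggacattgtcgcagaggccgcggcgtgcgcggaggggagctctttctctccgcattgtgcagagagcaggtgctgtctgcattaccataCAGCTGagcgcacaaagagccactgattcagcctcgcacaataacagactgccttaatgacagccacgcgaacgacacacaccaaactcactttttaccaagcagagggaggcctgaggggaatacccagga
Dll3, chr7:28301786-28302035, minus strand: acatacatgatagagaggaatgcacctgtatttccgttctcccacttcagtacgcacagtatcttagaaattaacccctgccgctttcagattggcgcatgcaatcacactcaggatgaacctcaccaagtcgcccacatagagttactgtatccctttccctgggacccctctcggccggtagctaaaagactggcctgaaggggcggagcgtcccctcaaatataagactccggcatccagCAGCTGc
Jag1, chr2:137116521-137116770, minus strand: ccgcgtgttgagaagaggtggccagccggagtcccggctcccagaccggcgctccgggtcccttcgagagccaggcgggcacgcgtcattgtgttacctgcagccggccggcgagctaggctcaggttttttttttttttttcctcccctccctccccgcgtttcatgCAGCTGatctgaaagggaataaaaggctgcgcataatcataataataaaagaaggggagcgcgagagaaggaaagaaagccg
Lfng, chr5:140607091-140607340, plus strand: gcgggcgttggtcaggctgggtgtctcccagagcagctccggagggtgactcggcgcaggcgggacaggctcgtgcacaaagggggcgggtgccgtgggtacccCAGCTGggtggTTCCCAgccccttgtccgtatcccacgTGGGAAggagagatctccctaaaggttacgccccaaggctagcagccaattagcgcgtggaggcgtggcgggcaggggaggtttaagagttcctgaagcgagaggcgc
Dll4, chr2:119325534-119325783, plus strand: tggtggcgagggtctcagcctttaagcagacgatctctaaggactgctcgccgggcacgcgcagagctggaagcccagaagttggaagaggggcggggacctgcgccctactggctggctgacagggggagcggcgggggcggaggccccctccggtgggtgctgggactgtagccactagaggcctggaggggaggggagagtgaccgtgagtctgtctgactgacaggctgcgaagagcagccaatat

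The E-box CAGCTG, which reads the same on both strands, occurred once in each of the Dll1, Dll3, Jag1 and Lfng windows above. Across the 11 windows of the 10 genes, these 4 held it, and 13.0% of 32851 promoter windows of the same length held it. Of the 11 windows, 7 held none of the 6 motifs, so the empty Dll4 window is no contrast. These were the inner Dll1 start (chr17:15375824-15376073), Dll4, Jag2, Notch1, Notch2, Notch3 and Notch4. The Lfng window also held TGGGAA at 2 places, once on each strand, a motif found in 21.6% of all windows. The ETS, T-box and GATA motifs and the E-box CATATG had no match in the 11 windows. Over all windows they occurred in 12.0%, 11.8%, 9.99% and 3.46%, in that order. None of the matches overlapped a match to another motif. These are matches of letters in 1 short window per start, and binding was not measured.

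Dll1, a Delta ligand that activates Notch on neighbouring cells and is needed for somite borders, measured 8.26 and 8.36 on the Etv2-Venus positive arrays, against 9.95 and 10.46 on the negative arrays. Both positive arrays thus lay below both negative arrays, with 1.59 between the nearest arrays of the 2 populations, against a spread of 0.10 within the positive and 0.51 within the negative pair. The difference was -1.89 (SE 0.19, 3.72-fold lower, 95% interval -2.39 to -1.39; limma adjusted p = 0.0682).

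Dll3, the inhibitory Delta ligand, measured 8.34 and 7.91 on the positive arrays, against 9.98 and 9.94 on the negative arrays. The negative arrays were almost level and the positive arrays lay 1.61 or more below them. The difference was -1.83 (SE 0.16, 3.57-fold lower, 95% interval -2.26 to -1.41; limma adjusted p = 0.0669). Dll1 and Dll3 have 1 probe set each, so no further probe set could be set beside either value.

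Neither gene passed an adjusted p of 0.05, and neither did any other gene: limma called 0 of 18194 genes (0%), whereas 2131 genes (11.7%) had an unadjusted p under 0.05. By the size of the moderated t, Dll3 stood at rank 36 and Dll1 at rank 67 of all genes. Only 0.423% of all genes were at least 2-fold lower, and 2 of the 10 Notch genes were, Dll1 and Dll3. At least 2-fold higher were 0.599% of all genes and 0 of the 10. The call for this pair depends on the variance model and on the filter on dim genes. When eBayes used a mean-variance trend and robust estimation, both had a limma adjusted p of 0.0391. With only the 10180 genes that averaged 6 or more tested, Dll3 was at 0.0429 and Dll1 at 0.0505. Over all 11 alternatives the adjusted p of either gene ran from 0.0391 to 0.400.

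**Figure D1:**
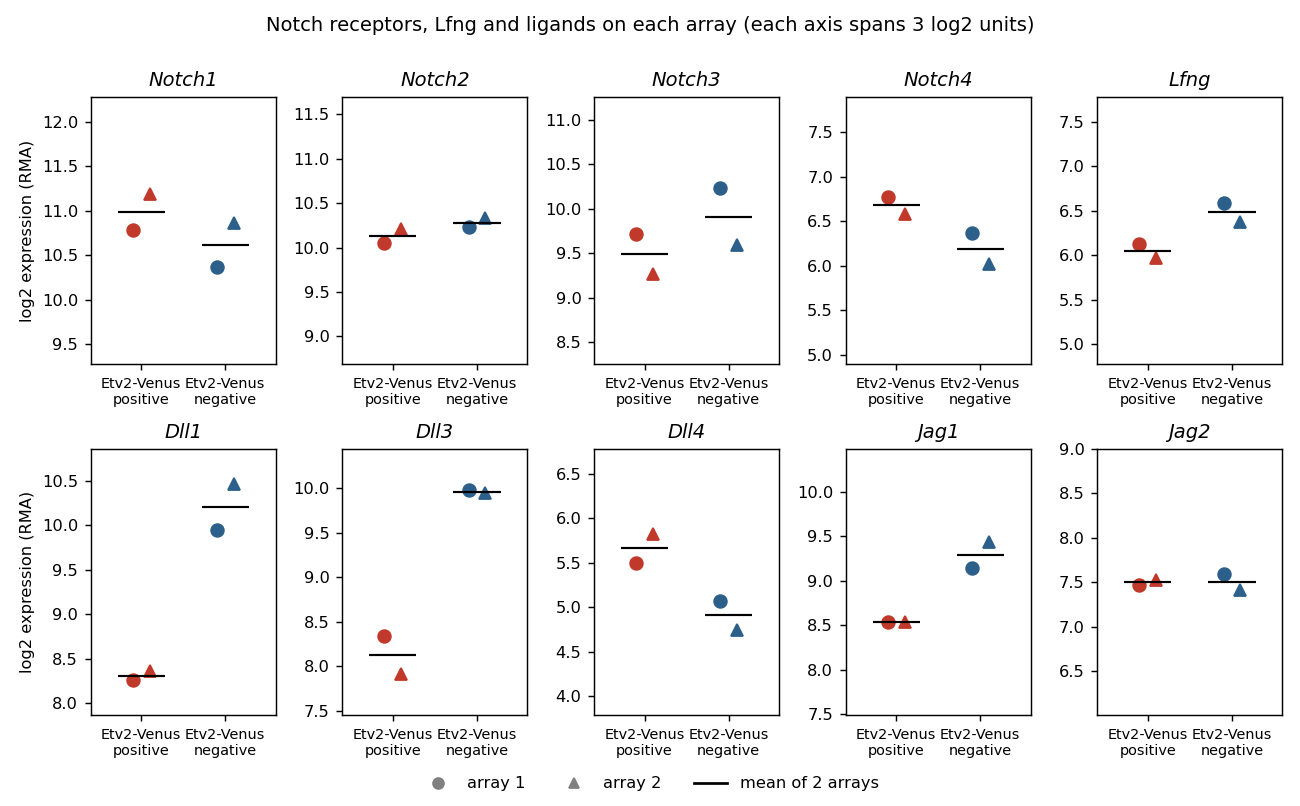
Log2 expression of the 4 Notch receptors, Lfng and the 5 ligands on each array, with Etv2-Venus positive arrays left and negative arrays right; circles are array 1, triangles array 2 and bars the mean of 2 arrays. Each axis spans 3 log2 units, so the distance for Dll1 (8.31 against 10.20) and Dll3 (8.12 against 9.96) can be compared with the smaller one for Jag1 and the overlap for Jag2, while levels of different genes are not comparable.

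Jag1, a ligand of the Serrate type that is also expressed in vessels, measured 8.54 and 8.53 on the positive arrays, against 9.14 and 9.43 on the negative arrays. The positive arrays were nearly identical and both lay below the negative arrays. The difference was -0.75 (SE 0.13, 1.68-fold lower, 95% interval -1.09 to -0.41; limma adjusted p = 0.129). The other probe sets of Jag1 had differences of -0.42 and -0.23, and on both the positive arrays lay below the negative arrays. With the mean over its 3 probe sets the difference of Jag1 was -0.47.

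Dll4, the Delta ligand of arterial and sprouting endothelium, measured 5.50 and 5.82 on the positive arrays, against 5.07 and 4.74 on the negative arrays. It was the ligand with both positive arrays above both negative arrays, opposite in direction to Dll1, Dll3 and Jag1. The difference was 0.75 (SE 0.17, 1.69-fold higher, 95% interval 0.30 to 1.21; limma adjusted p = 0.200). Dll4 was dim: its mean lay 0.17 above the array median in positive cells and 0.59 below it in negative cells, a range in which RMA compresses differences, so the size is uncertain. Its second probe set, at 5.06 and 5.09 against 4.74 and 4.62, differed by 0.39 in the same direction.

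Jag2, the other Serrate-type ligand, measured 7.47 and 7.53 on the positive arrays, against 7.59 and 7.42 on the negative arrays. The arrays overlapped and the difference was -0.0046 (SE 0.10; limma adjusted p = 0.996), with a 95% interval of -0.28 to 0.27. That interval leaves room for differences smaller than those estimated for Dll1, Dll3, Jag1 and Dll4. The second probe set, at a difference of 0.09, had the opposite sign, the only such case among the 8 genes with several probe sets.

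**Figure D2:**
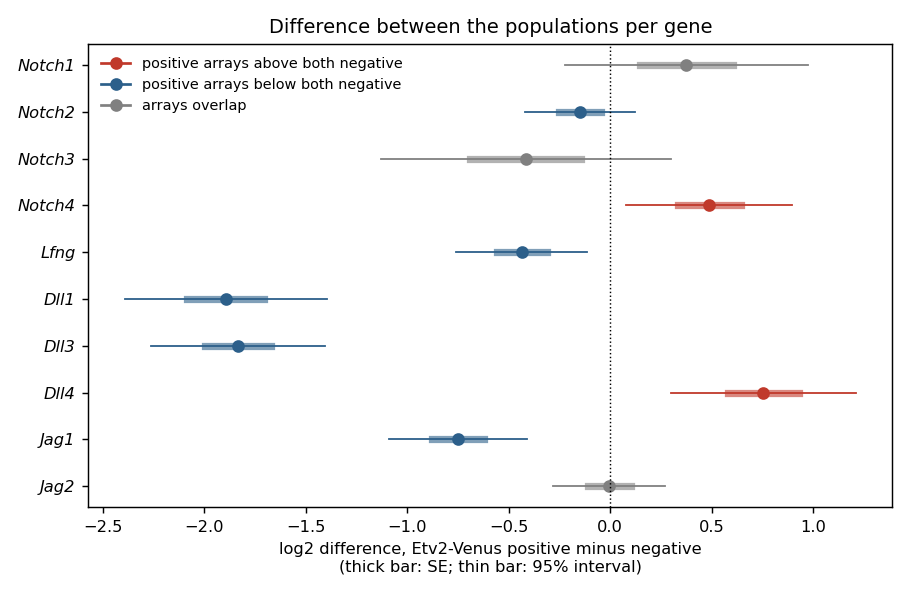
Log2 difference of each gene, Etv2-Venus positive minus negative; the thick bar is the SE and the thin bar the 95% interval of the limma fit on 2 against 2 arrays. Dll1 at -1.89 and Dll3 at -1.83 lie apart from the other 8 genes, which range from -0.75 for Jag1 to 0.75 for Dll4.

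The differences of the 4 receptors ranged from -0.42 for Notch3 to 0.49 for Notch4, and their directions were mixed. Notch4, a receptor expressed mainly in endothelium, measured 6.78 and 6.58 on the positive arrays, against 6.37 and 6.02 on the negative arrays. Both positive arrays were above both negative arrays, with a difference of 0.49 (SE 0.16, 1.40-fold higher; limma adjusted p = 0.337). Its other probe sets had means of 3.97 and 3.67, far below the array medians, with differences of 0.06 and 0.00, and the mean over the 3 probe sets differed by 0.18.

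Notch1, the receptor needed for arterial and definitive blood fates, measured 10.78 and 11.19 on the positive arrays, against 10.36 and 10.86 on the negative arrays. Array 2 was higher than array 1 in each population, by 0.41 and 0.50, and the populations overlapped. The difference was 0.38 (SE 0.23; limma adjusted p = 0.634), and 0.32 on its second probe set. Without array 1 of the negative cells the difference was 0.13, and without array 2 of the positive cells 0.17. Leaving out array 2 of the negative cells or array 1 of the positive cells gave 0.62 and 0.58. Between arrays of the same number, which the labels do not pair, the difference was 0.42 for arrays 1 and 0.33 for arrays 2.

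Notch3, a receptor of pericytes and vascular smooth muscle, measured 9.72 and 9.27 on the positive arrays, against 10.24 and 9.59 on the negative arrays. Here array 1 was the higher one in each population and the populations again overlapped. The difference was -0.42 (SE 0.27; limma adjusted p = 0.668) on a probe set (suffix s_at) that may cross-hybridise within a gene family, and -0.32 on the other probe set. Without array 1 of the negative cells it was -0.09 and without array 2 of the positive cells -0.19. Without array 2 of the negative cells it was -0.74 and without array 1 of the positive cells -0.64. Between arrays of the same number the Notch3 difference was -0.52 for arrays 1 and -0.32 for arrays 2.

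Of 12 markers of OP9 stroma and fibroblasts, 8 were higher on array 1 in both populations, as Notch3 was. The chemokine Cxcl12 was the 1 that was higher on array 2 in both. Also higher on array 1 in both were 10 of 17 segmentation clock and presomitic genes and 8 of 14 arterial genes. Of the 14 endothelial markers, 2 were higher on array 1 in both populations and 6 on array 2. The count is thus not particular to stromal markers, and the share over all genes was not counted. The median over the 12 genes of array 1 minus array 2 was 0.27 in positive and 0.32 in negative cells. Their mean level was 6.22 and 5.69 on the positive arrays, against 6.48 and 5.95 on the negative arrays. Between the populations 4 of the 12 had an unadjusted p under 0.05, all lower in positive cells, against 4.64% of all genes, among them Cxcl12 at -0.63 (SE 0.11). The collagen Col1a2 measured 9.79 and 7.96 on the positive arrays, against 10.02 and 8.41 on the negative arrays. Col3a1, another collagen, measured 7.73 and 5.39 on the positive arrays, against 7.86 and 5.90 on the negative arrays. Pdgfrb averaged 8.31 and Fbln2 7.39 over the arrays. Of the 12 genes, 4 averaged under 5, among them Lum and Postn at 4.14 or less on every array. The part of stromal cells in the Notch3 values was not tested.

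Notch2 measured 10.05 and 10.21 on the positive arrays, against 10.23 and 10.33 on the negative arrays. The positive arrays lay below the negative arrays by only 0.02 at the nearest pair. The difference was -0.15 (SE 0.10, 95% interval -0.42 to 0.12; limma adjusted p = 0.691), and its other probe set was at a mean of 3.93, far below the array medians. Without 1 array at a time it lay between -0.22, without array 2 of the positive cells, and -0.07, without array 1 of the positive cells.

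Lfng, a glycosyltransferase of the Golgi that adds sugars to Notch receptors and so alters which ligands they respond to, measured 6.13 and 5.96 on the positive arrays, against 6.59 and 6.38 on the negative arrays. Both positive arrays were below both negative arrays. The difference was -0.44 (SE 0.12, 1.35-fold lower; limma adjusted p = 0.283). The second probe set of Lfng, with a mean of 4.53, differed by -0.16 with overlapping arrays.

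Across the 10 genes the arrays of the 2 populations were apart for 7, with 2 higher (Dll4 and Notch4) and 5 lower (Dll1, Dll3, Jag1, Lfng and Notch2). Among all 18194 genes they were apart for 39.5%, 22.4% higher and 17% lower. At an unadjusted p under 0.05 there were 6 of the 10, which are those with arrays apart other than Notch2, with 2 higher against 7.07% of all genes and 4 lower against 4.64%. At an adjusted p under 0.10 there were 2, Dll1 and Dll3, against 1.29% of all genes. The median difference was -0.28 over the 10 genes and 0.01 over all genes, and the median absolute difference was 0.46 against 0.11.

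**Figure D3:**
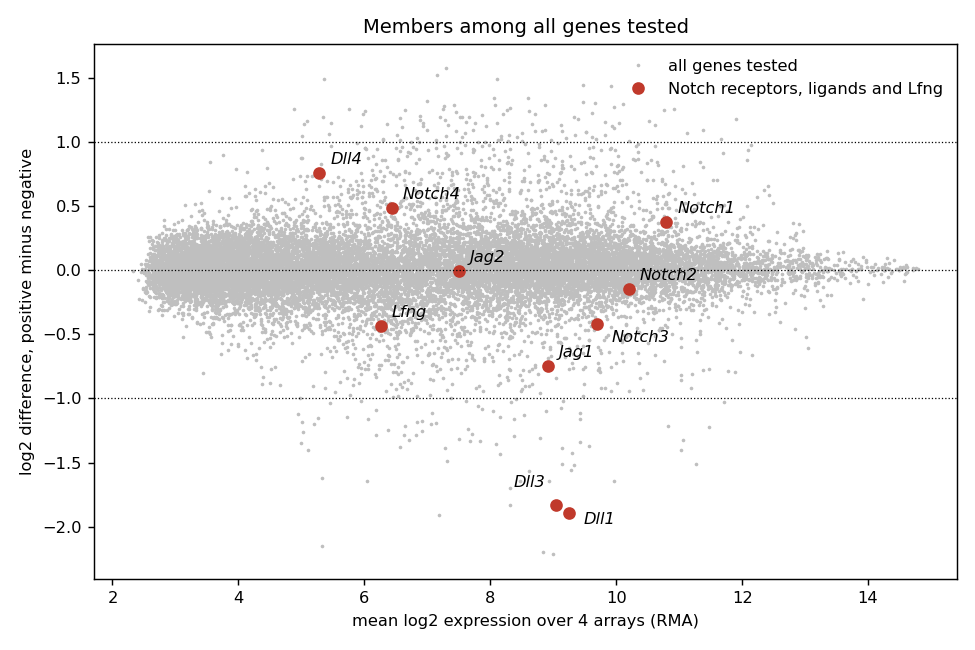
Difference between the populations (Etv2-Venus positive minus negative, log2) against the mean log2 expression over 4 arrays for 18194 genes in grey, with the 10 Notch genes in red; dotted lines mark 0 and a 2-fold difference. Dll1 and Dll3 are the 2 red points below -1, and Dll4 lies among dim genes at a mean of 5.28.

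Probe sets of the same gene gave a check that does not depend on the choice of the brightest. Of the 20 probe sets, 6 had a mean under 5, below the array medians. For Notch1, Notch2, Notch3, Lfng, Dll4 and Jag1 the probe sets shared a direction, and the brightest probe set showed the largest absolute difference. The dim further probe sets of Notch4 differed by 0.06 and 0.00, against 0.49 on its brightest. With all 45101 probe sets tested together, the limma adjusted p was 0.216 for Dll1 and for Dll3, and 0 of the 20 probe sets passed.

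**Figure D4:**
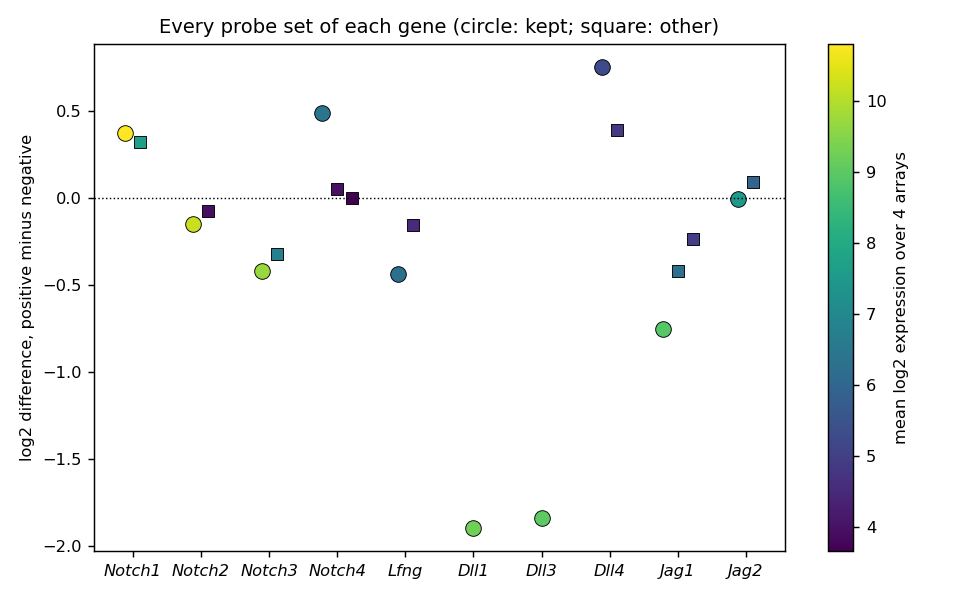
Difference between the populations (Etv2-Venus positive minus negative, log2) for each of the 20 probe sets of the 10 genes, coloured by mean log2 expression; circles are the probe sets kept and squares the others. Of the probe sets with a mean under 5, those of Notch2, Notch4 and Lfng lie between -0.16 and 0.06. Those of Dll4 and Jag1 lie at 0.39 and -0.23.

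The genes whose 4 array values, each centred on the gene's own mean, lay closest to those of a Notch ligand were found by the root mean square distance over the 4 arrays, as a description of these arrays alone. Closest to Dll1 were Pdlim4 (distance 0.15 log2 units), Pcdh19 (0.17) and Pcdh8 (0.18). Pcdh8, a protocadherin of presomitic mesoderm, measured 7.76 and 7.71 on the positive arrays, against 9.81 and 10.07 on the negative arrays. Closest to Dll3 were Frzb (0.10), which encodes a secreted Wnt antagonist, Mesp1 (0.14) and Itga8 (0.15). Mesp1, a transcription factor of nascent mesoderm, measured 9.23 and 9.07 on the positive arrays, against 10.86 and 10.73 on the negative arrays. Closest to Dll4 were Ucn (0.06), Acvrl1 (0.07) and P2rx1 (0.07), all dim genes with means from 5.28 to 5.50. Closest to Jag1 were Rhpn2 (0.04), Rbm24 (0.06) and Zfp975 (0.06).

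Genes of the segmentation clock and the presomitic mesoderm, the setting in which Dll1, Dll3 and Lfng are known, were divided. Of 17 measured, 5 had an unadjusted p under 0.05 and all 5 were lower in positive cells, against 4.64% of all genes, while 0 were higher. The median difference was -0.31, against 0.01 over all genes. The 4 with the smallest p were Pcdh8 at -2.20 (SE 0.12), Mesp1 at -1.64 (SE 0.11), Tbx6 at -1.62 (SE 0.20) and Mesp2 at -0.86 (SE 0.13). Pcdh8, like Sox17, Egfl7, Myb and Zfp975, was read on a probe set (suffix x_at) that may cross-hybridise with other sequences. The T-box factor Tbx6, which is needed for paraxial mesoderm, measured 4.69 and 4.33 on the positive arrays, against 6.34 and 5.92 on the negative arrays. Hes7, the oscillating repressor of the clock, was dim and overlapped at 5.22 and 5.32 against 5.47 and 5.14. Msgn1, another regulator of presomitic mesoderm, was at 5.30 and 5.13 against 5.33 and 5.34, also below the array medians.

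Among 14 arterial genes, 6 had an unadjusted p under 0.05 and all 6 were higher, against 7.07% of all genes, with a median of 0.11. Sox17 at 0.96 (SE 0.12), Eng at 1.12 (SE 0.15), Acvrl1 at 0.82 (SE 0.13) and Hey2 at 0.71 (SE 0.14) had the smallest p. Eng is also among the 14 endothelial markers, of which 13 were higher at that threshold, so the count is not particular to arterial genes. Efnb2, the ephrin ligand that marks arteries, was bright, at 10.82 and 11.00 on the positive arrays, against 10.74 and 10.70 on the negative arrays. Both positive arrays were above both negative arrays, with a small difference of 0.19 (SE 0.10). Members with lower values in positive cells were also present. The chemokine receptor Cxcr4 measured 9.32 and 8.53 on the positive arrays, against 10.14 and 9.24 on the negative arrays, and overlapped, with a difference of -0.76 (SE 0.40). Nrp1, a co-receptor for VEGF and semaphorins, overlapped as well, at -0.31 (SE 0.18). Gja5, an arterial connexin, was at 4.15 and 4.07 against 4.33 and 4.26, below the array medians. The other connexin listed, Gja4, was higher, at 6.87 and 7.28 on the positive arrays, against 5.68 and 6.45 on the negative arrays. Its difference was 1.01 (SE 0.30).

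Of 8 Hes and Hey genes, a family of repressors of which several are induced by Notch, 2 had an unadjusted p under 0.05, both higher, against 7.07% of all genes. These 2, Hey2 and Hey1, are also among the 6 arterial genes counted above. Hey2 measured 6.69 and 6.35 on the positive arrays, against 5.83 and 5.80 on the negative arrays. Hey1, which was bright, measured 10.21 and 10.07 against 9.83 and 9.67, a difference of 0.39 (SE 0.11; limma adjusted p = 0.287). Hes1 overlapped at 10.34 and 10.01 on the positive arrays, against 10.45 and 9.84 on the negative arrays, as did Nrarp, a feedback inhibitor that Notch induces, at 10.95 and 10.52 against 11.04 and 10.30. The median over the 8 genes was 0.00.

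By the median size of the differences, the shared machinery of the pathway lay close to all genes. In 5 lists of glycosylation, ligand endocytosis, receptor cleavage, the nuclear complex and regulators, 42 genes were measured and 5 (11.9%) had an unadjusted p under 0.05, close to the 11.7% of all genes. Their median absolute difference was 0.12, against 0.11 over all genes. Arrays were apart for 21 of the 42, against 39.5% of all genes. Of the 8 cleavage genes measured, 5 had positive arrays above both negative arrays and 1 below, against 22.4% and 17% of all genes. Of the 4 glycosylation genes, which include the fringes Mfng and Rfng and the O-fucosyltransferase Pofut1, 0 had an unadjusted p under 0.05, and they ranged from -0.08 to 0.16. Rbpj, the DNA-binding partner of all 4 receptors, measured 9.88 and 9.51 on the positive arrays, against 9.74 and 9.51 on the negative arrays.

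The machinery genes with an unadjusted p under 0.05 were the 5 that follow. Adam10, the protease that makes the first ligand-dependent cut, measured 10.97 and 10.89 on the positive arrays, against 10.52 and 10.57 on the negative arrays, a difference of 0.38 (SE 0.09; limma adjusted p = 0.210). Neurl1b, a ubiquitin ligase that promotes ligand endocytosis, was at 0.35 (SE 0.09) and Numb, an inhibitor of Notch, at 0.28 (SE 0.11). Dner, a transmembrane protein related to Delta ligands, measured 6.42 and 6.17 on the positive arrays, against 7.32 and 7.03 on the negative arrays, a difference of -0.88 (SE 0.15; limma adjusted p = 0.130). Tle3, a Groucho-type corepressor used by Hes proteins, was at -0.53 (SE 0.10).

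**Figure D5:**
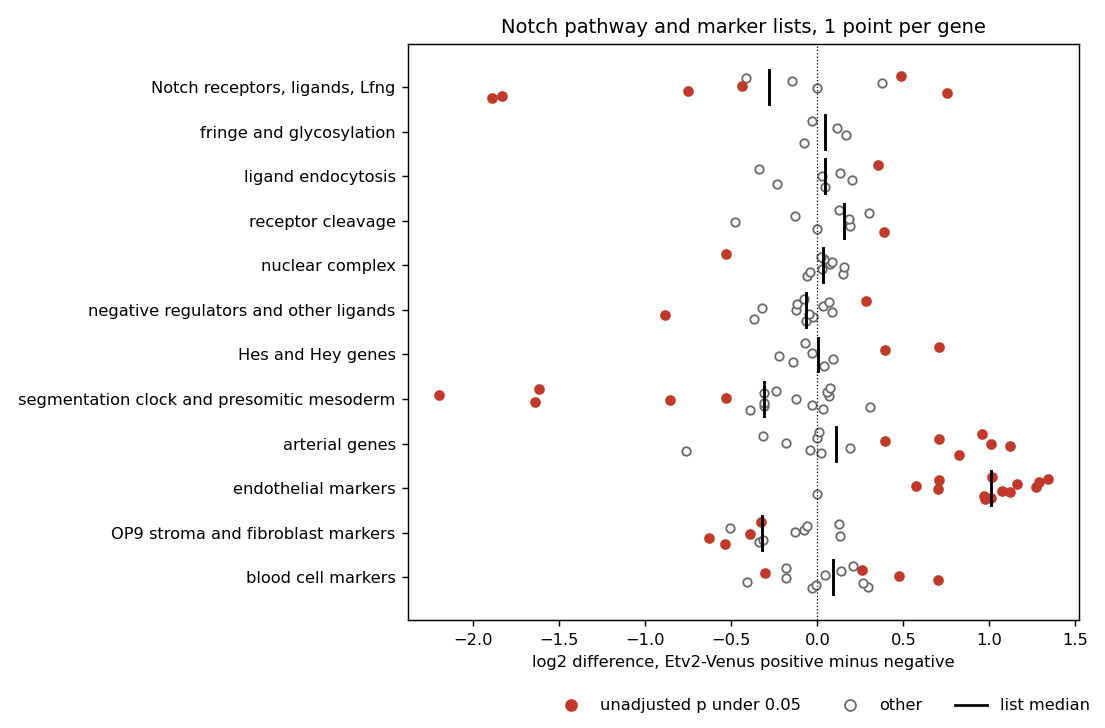
Difference between the populations (Etv2-Venus positive minus negative, log2) for each gene of the Notch genes, 8 further pathway and tissue lists and 3 marker lists; filled points have an unadjusted p under 0.05 and bars are list medians. The 10 Notch genes span -1.89 to 0.75, whereas the 8 measured cleavage genes span -0.48 to 0.38 and the endothelial markers have a median of 1.01.

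Markers of endothelial and blood cells, which the sort could hold, were read on the same arrays. The 14 endothelial markers had a median of 1.01, and 13 had an unadjusted p under 0.05, all higher, against 7.07% of all genes, the 4 with the smallest p being Rasip1, Flt4, Egfl7 and Esam. Their mean level was 8.34 and 8.44 on the positive arrays, against 7.39 and 7.49 on the negative arrays. Of the 14 blood cell markers, 3 were higher and 1 lower at that threshold, against 7.07% and 4.64% of all genes. Itga2b, an early blood progenitor integrin, measured 8.66 and 8.46 on the positive arrays, against 7.82 and 7.90 on the negative arrays. The other higher ones were the transcription factors Myb at 0.47 (SE 0.11) and Spi1 at 0.26 (SE 0.09). Ptprc, the common leukocyte antigen, was the lower one, at 2.97 to 3.39 over the 4 arrays, far below the array medians. The part of the endothelial share of the cells in the values of Dll4, Notch4 and the other Notch genes was not tested.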

How the data were processed

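Total RNA of 4 samples was labelled with biotin and hybridised to Affymetrix arrays, per the labels' protocols. Per the submitters' processing notes, the authors ran RMA under R 2.8.0. The deposited values are taken as log2 because they span 2.16 to 14.93. Groups came from sample titles, and gene symbols from the platform annotation (34958 probe sets with 1 symbol, 932 with several, 9160 unlisted, 64 controls), updated through Entrez identifiers with RefSeq genes of GRCm38.p6 (34754 matched, 0 changed). Positive and negative arrays were tested in limma 3.58.1 (lmFit, eBayes; R 4.3.3), two-sided, with no term besides population (2 residual and 2.68 prior degrees of freedom) and Benjamini-Hochberg adjustment over 18194 genes at 0.05.

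The alternatives were 4 choices of genes, probe sets and variance model, 2 normalizations, a block for the array number, and each array left out in turn. The 10 genes and the 11 further lists were chosen with earlier results of these data known; of 130 listed symbols 125 were measured. Named genes were the 10, up to 4 genes per pathway list with the smallest p, and the 3 nearest genes (mean of at least 5) to each of the 10 with a difference of at least 0.5 and arrays apart. Efnb2, Cxcr4, Nrp1, Gja4, Gja5, Hes7, Msgn1, Hes1, Nrarp, Rbpj and the genes named from the 3 marker lists were chosen after their values were seen. Promoter windows are from RefSeq, and figures were drawn with matplotlib 3.10.9.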

Additional observations from a re-analysis of the deposited data

How the results depend on the processing

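Each of the 10 genes except Jag2 kept its direction under every alternative in which it was measured; Dll4 was not tested among genes with a mean of at least 6. Jag2, at -0.0046, turned to 0.045 with the mean over its probe sets, 0.0046 after quantile normalization run again and 0.035 with arrays centred on their medians, and lay between -0.092 and 0.083 when 1 array was left out; its value is close to 0 in each. Limma called 67 genes higher and 13 lower among 10180 genes with a mean of at least 6, Dll3 among them at -1.83 (adjusted p = 0.0429), and 81 and 31 when eBayes used a mean-variance trend and robust estimation, among them Dll1 at -1.89 and Dll3 at -1.83 (each at 0.0391). In the first case fewer genes were tested; for the second the cause was not tested. Without 1 array, 0 genes were called in either direction in each of the 4 fits, Dll1 lay between -2.15 and -1.64 and Dll3 between -2.05 and -1.62. The arrays share the numbers 1 and 2, but nothing in the labels pairs them; across genes the deviations of same-numbered arrays from their group means correlated at 0.54. With the array number as a replicate block, 0 genes were called higher and 0 lower, as without it. The limma adjusted p was then 0.0856 for Dll1 and Dll3, 0.137 for Notch1 and 0.158 for Notch3. The SE was 0.06 for Notch1 and 0.08 for Notch3, against 0.23 and 0.27 without the block. The 2 arrays per population limit what can be called, and dim probe sets, such as those of Dll4, limit the sizes.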
